A study of Mus musculus with 14 samples.

Results

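Mocs1, Megf10, Mvp, Srrm4 and Pebp1 are 5 genes picked because the m6A-RIP rows that carry their names differed between Lin28a+ and control muscle stem cells (MuSCs) in another way than their RNA. They were chosen on the change in m6A-RIP set against the change in input RNA and matched by symbol, and they stand among 7408 genes with both measurements. The values of RNA, of m6A-RIP and of m6A relative to input therefore describe the choice and are given without a test. The RIP-seq of Igf2bp3 and of Lin28a was not used in the choice.

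The cells were cultured mouse skeletal muscle stem cells on Matrigel. Lin28a+ MuSCs were compared with control MuSCs, and the control group is labelled by its genotype alone. Per the study, Lin28a+ cells came from Lin28a-CreERT2; LSL-tdTomato mice, in which a tamoxifen-dependent Cre driven by the Lin28a locus switches on a red reporter. Such a group holds cells by the history of that locus. There were 14 libraries, 2 in each of 7 groups: input, m6A-RIP and Igf2bp3-RIP from each cell population, and Lin28a-RIP from Lin28a+ MuSCs. Whether the libraries of a pair came from separate animals or cultures is not given in the labels, so the spread between them may be technical.

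N6-methyladenosine (m6A) is a methyl mark that a writer complex places on messenger RNA and that reader proteins bind. In m6A-RIP, RNA is fragmented and the marked fragments are pulled down with an antibody, so the signal of a gene depends both on how much of its RNA there is and on how much of it is marked. The input library measures the first of these. Igf2bp3 is an RNA-binding protein of the family of m6A readers, and Lin28a is an RNA-binding protein of embryonic cells best known for blocking the maturation of let-7 microRNAs. In MuSCs both can be pulled down with the RNA they hold, and RIP-seq peaks mark where that RNA piles up.

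Depth, as summed in the files, was 4842915 to 6220960 estimated counts in the input libraries, 21350962 to 31830638 counts in m6A-RIP, 9215355 to 34142094 counts in Igf2bp3-RIP and 33908110 to 36610494 counts in Lin28a-RIP. Levels are given as CPM, counts scaled to library size with TMM factors within an assay. All 10 myogenic markers were in the input table, and their sum was 15121 to 15748 CPM in control and 14793 to 14989 CPM in Lin28a+ libraries, with 3 of them higher and 5 lower in edgeR. Average levels in control and Lin28a+ MuSCs were 148 and 191 CPM for Pax7, 455 and 199 CPM for Myf5, 4651 and 4736 CPM for Myod1, 765 and 2795 CPM for Myog, 1696 and 1188 CPM for Des and 5923 and 3149 CPM for Chrna1. The sums of other cell lists were, in control and Lin28a+ libraries, 123 to 128 and 131 to 132 CPM for fibro-adipogenic progenitors (5 of 8 markers in the table, mostly Col3a1, with Pdgfra at 0 in Lin28a+ MuSCs and Ly6a at 4.20 and 13.0 CPM), 0.485 to 0.736 and 0.394 to 0.410 CPM for endothelium (2 of 6), and 2.26 to 3.13 and 1.57 to 2.46 CPM for macrophages (5 of 6, with Ptprc at 0 in both). The neural and Schwann list (6 of 10, mostly Tubb3) summed to 56.3 to 58.5 and 52.1 to 59.2 CPM. The pericyte and smooth muscle list (5 of 6) summed to 5352 to 5437 and 7505 to 7511 CPM, nearly all of it Acta2, with 3 of 4 tested markers higher and 1 lower, and in that list Mcam averaged 6.22 and 56.3 CPM and Rgs5 2.25 and 0.201 CPM. The part of these differences in the values of the 5 genes was not tested, and in such bulk samples fewer cells of a type and less RNA per cell cannot be told apart. Lin28a itself was not analysed here.

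Across all genes RNA and m6A-RIP were called in both directions. Of 11317 genes tested for RNA, 28.1% were higher and 28.7% lower in Lin28a+ MuSCs, by the quasi-likelihood test of edgeR at a Benjamini-Hochberg adjusted p under 0.05. For m6A-RIP summed per gene, 32.5% of 9413 genes were higher and 33.7% lower. When the m6A-RIP change was set against the input change in a single model, 3.35% of 7408 genes were higher and 3.91% lower. Of the 5 genes, 4 had a positive value in that model (Mocs1, Megf10, Mvp and Srrm4) and Pebp1 a negative one, which follows from the choice. In RNA, the fold changes of Srrm4 and Pebp1 were positive, those of Megf10 and Mvp negative and that of Mocs1 near 0. In m6A-RIP, 4 of the 5 had more signal in Lin28a+ MuSCs and Pebp1 had less.

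**Figure D1:**
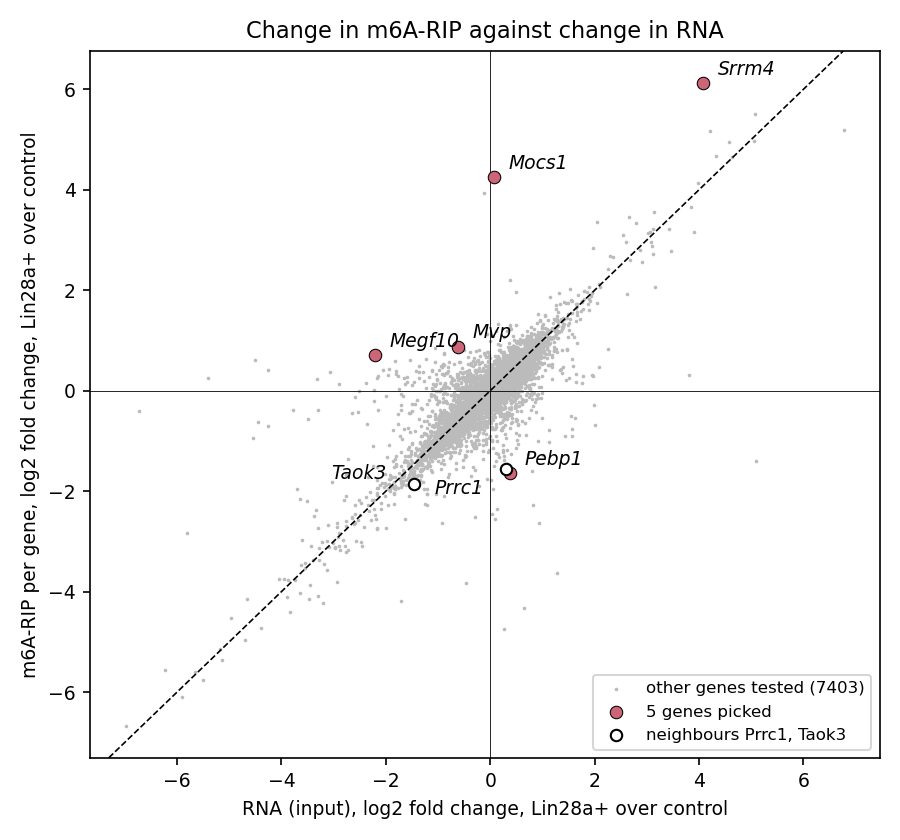
Log2 fold change of m6A-RIP per gene (vertical) against log2 fold change of input RNA (horizontal), Lin28a+ over control, for the 7408 genes tested in both; the dashed line marks equal change. Mocs1 (0.07 in RNA, 4.25 in m6A-RIP), Megf10 (-2.21, 0.71), Mvp (-0.62, 0.88) and Srrm4 (4.07, 6.13) lie above the line and Pebp1 (0.38, -1.64) below it. The neighbour Taok3 lies near the line, and Prrc1 lies beside Pebp1.

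Mocs1 (ENSMUSG00000064120) encodes the enzyme of the first step in making the molybdenum cofactor, which sulfite oxidase and xanthine dehydrogenase need. Its RNA was low and level, with 4.39 and 4.78 CPM in control libraries and 4.36 and 5.54 CPM in Lin28a+ input libraries. Its m6A-RIP signal went from 1.18 and 1.81 CPM in control to 26.8 and 28.7 CPM in Lin28a+ libraries. The input libraries of the groups overlap, whereas the m6A-RIP libraries are far apart. The log2 fold change was 0.07 (standard error 0.16) in RNA and 4.25 (0.18) in m6A-RIP. Standard errors here and below are the size of the log2 fold change over the square root of edgeR's F statistic. They can be smaller than counting error alone. m6A relative to input was 4.19 (0.32) on the log2 scale, rank 9 of 7408 by size. As a ratio of levels on the log2(CPM + 1) scale it differed by 3.47.

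Both m6A rows of Mocs1 belong to the transcript ENSMUST00000173430. The first held 25 and 23 counts in control and 351 and 479 in Lin28a+ libraries, the second 14 and 17 against 264 and 382. Each row alone gave a like value relative to input, 4.08 (standard error 0.29) and 4.34 (0.36). Summed over the libraries of a group, 79 control counts stood against 1476, a ratio of 19.4 with an exact 95% interval of 15.5 to 24.7 that covers counting error only.

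The m6A table holds no positions, but the RIP tables do, and they place peaks on the same transcript. In RefSeq on GRCm38.p6, Mocs1 spans 49428350 to 49455435 on chromosome 17, and the next gene, Daam2, begins 587 bp further on and runs from 49456022 to 49564459. The peaks are read here as mm10, the mouse build in the submitters' processing notes, although the paper's methods name GRCh38. Both Igf2bp3-RIP peaks given to Mocs1, chr17:49457420-49457621 and chr17:49479736-49480086, lie outside Mocs1 and inside the span of Daam2. So do all 7 of its Lin28a-RIP peaks, the nearest of which starts 694 bp past the end of Mocs1 and the farthest 34820 bp. Over the whole tables, 19.4% of Igf2bp3-RIP peaks and 13.9% of Lin28a-RIP peaks lay outside the RefSeq span of the gene they were given to.

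Daam2 encodes a formin of the Wnt and actin pathways. Its RNA was 1.93 and 1.60 CPM in control libraries and 22.8 and 22.1 CPM in Lin28a+ input libraries. It rose by a log2 fold change of 3.61 (standard error 0.11, adjusted p = 1.18e-05 in edgeR's quasi-likelihood test), and no m6A-RIP row or RIP peak carries its name. With the input counts of Daam2 in place of those of Mocs1, a setting chosen after seeing the data, the relative change of the Mocs1 rows was 0.64 (standard error 0.35) in place of 4.19. From which of the neighbouring genes the m6A fragments came was not tested.

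**Figure D2:**
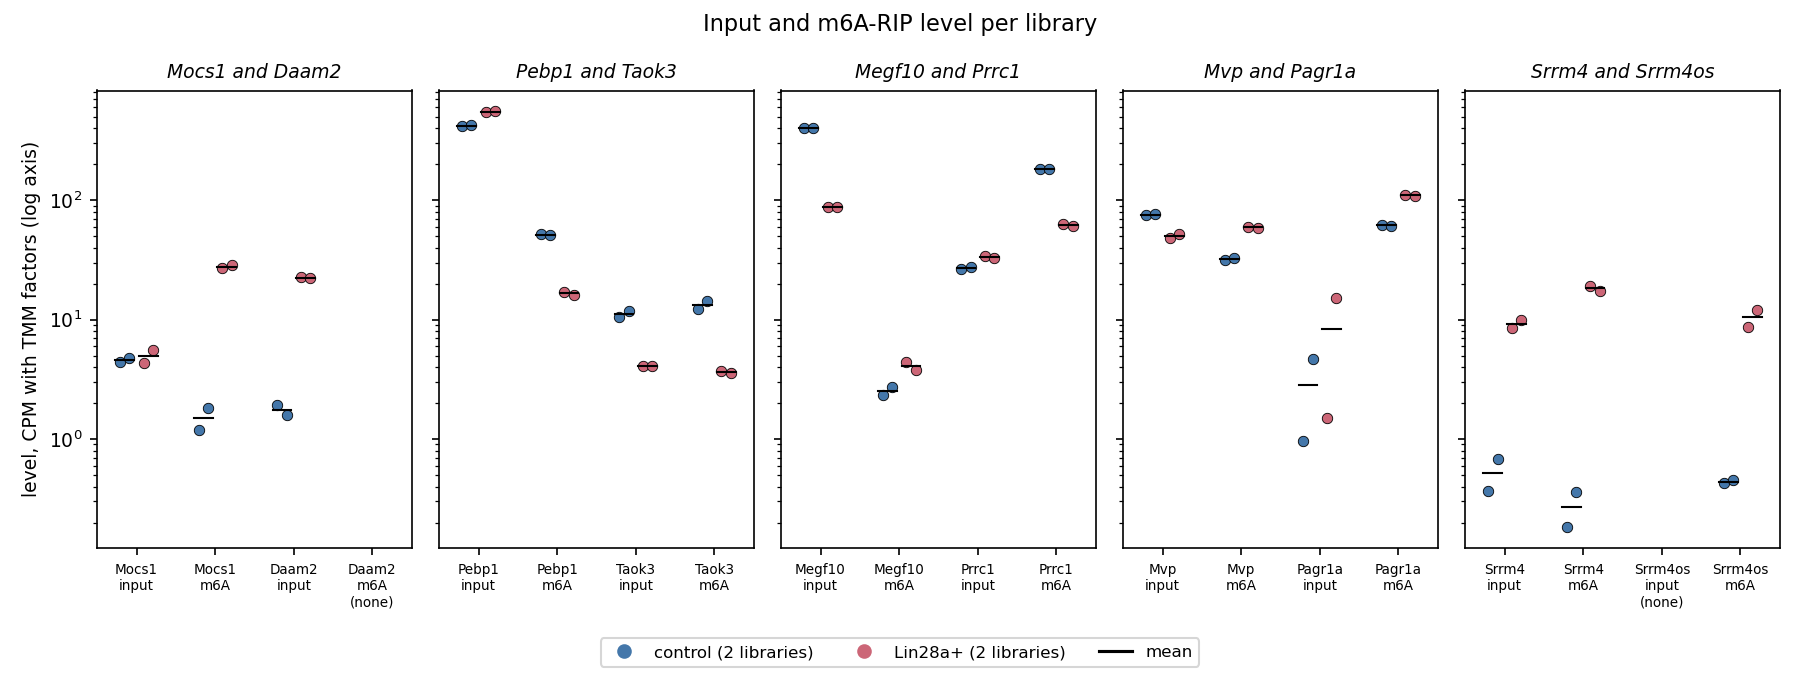
Level per library in CPM (log axis) in input and m6A-RIP for each of the 5 genes beside a neighbouring or overlapping gene; points are the 2 libraries of a group and bars their means. Mocs1 input overlaps between groups while its m6A-RIP and the input of Daam2 are both far higher in Lin28a+ MuSCs, and Pebp1 input is higher while its m6A-RIP and both levels of Taok3 are lower.

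Pebp1 (ENSMUSG00000032959) encodes a phosphatidylethanolamine-binding protein, also called Raf kinase inhibitor protein, which restrains the Raf-MEK-ERK cascade. It was the only one of the 5 with less m6A-RIP signal in Lin28a+ MuSCs. Input was 416 and 421 CPM in control libraries and 545 and 553 CPM in Lin28a+ libraries, and m6A-RIP was 51.6 and 51.2 against 17.1 and 16.0 CPM. In both assays the groups did not overlap, in opposite directions. RNA differed by 0.38 (standard error 0.02) on the log2 scale, m6A-RIP by -1.64 (0.08) and m6A relative to input by -2.01 (0.05), rank 60 of 7408.

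All 3 m6A rows of Pebp1 lie on the transcript ENSMUST00000139913. Their counts were 763 and 455, 675 and 489, and 262 and 188 in control, and 206 and 224, 115 and 200, and 73 and 56 in Lin28a+ libraries. Relative to input the rows gave -1.81 (standard error 0.10), -2.21 (0.11) and -2.12 (0.17), so no single row carried the change.

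The single Igf2bp3-RIP peak of Pebp1, on the same transcript at chr5:117265809-117266009, lies 16642 bp from Pebp1, which RefSeq places at 117282651 to 117287564. It lies inside Taok3, a kinase of the stress-activated MAP kinase pathways, whose span ends 7550 bp before Pebp1. Taok3 RNA was 10.6 and 11.8 CPM in control libraries and 4.08 and 4.08 CPM in Lin28a+ libraries, a log2 fold change of -1.46 (standard error 0.10, adjusted p = 1.38e-04 in edgeR's quasi-likelihood test). The 3 m6A rows that carry the name of Taok3 also fell, by -0.96, -2.31 and -1.95 on the log2 scale, and relative to input Taok3 differed by -0.38 (standard error 0.24, adjusted p = 0.644 in edgeR). With the input counts of Taok3 in place of its own, again chosen after seeing the data, the rows of Pebp1 gave -0.17 (standard error 0.18) in place of -2.01. The source of these fragments was not tested either.

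Megf10 (ENSMUSG00000024593) encodes a transmembrane protein with many EGF-like repeats that acts in the uptake of apoptotic cells and in the balance between proliferation and differentiation of satellite cells. Its RNA was the most changed downwards of the 5, with 399.9 and 402.3 CPM in control libraries and 86.9 and 87.6 CPM in Lin28a+ input libraries. Its m6A-RIP signal was small and went the other way, with 2.34 and 2.71 CPM in control libraries and 4.44 and 3.80 CPM in Lin28a+ libraries. The groups did not overlap in either assay, but the m6A-RIP values rest on 60 to 114 counts per library. RNA differed by -2.21 (standard error 0.03) on the log2 scale, m6A-RIP by 0.71 (0.23) and m6A relative to input by 2.93 (0.13), rank 25 of 7408.

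A single m6A row carries the name of Megf10, on the transcript ENSMUST00000075770. The next gene, Prrc1, has 3, and the largest of them, on ENSMUST00000025490, went from 156 and 153 CPM in control to 31.7 and 30.8 CPM in Lin28a+ libraries. That is a log2 fold change of -2.31 (standard error 0.06, adjusted p = 4.49e-13 in edgeR's quasi-likelihood test), while Prrc1 RNA was higher, by 0.30 (standard error 0.05, adjusted p = 0.0185). The other rows of Prrc1 differed by 0.32 (adjusted p = 0.160) and 0.45 (adjusted p = 0.00265) in the same test.

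Megf10 spans 57133090 to 57297467 on chromosome 18 and Prrc1 starts 57266 bp beyond it. Of the 9 Igf2bp3-RIP peaks given to Prrc1, 8 lie inside Megf10, all on ENSMUST00000025490, and so do all 15 Lin28a-RIP peaks of Prrc1. Among them are the widest peaks of both tables at this locus, chr18:57293766-57297392 for Igf2bp3 and chr18:57293697-57297389 for Lin28a, which end just inside the higher-coordinate end of Megf10. When the m6A counts of that transcript were added to those of Megf10, chosen after seeing the data, m6A relative to input came to 0.017 (standard error 0.06) in place of 2.93. The added row holds far more m6A counts than the row of Megf10, so this value mostly sets the added row against Megf10 input. Under the annotation as deposited, Prrc1 showed the mirror image, with m6A relative to input at -1.84 (standard error 0.08, adjusted p = 5.04e-07 in edgeR).

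**Figure D3:**
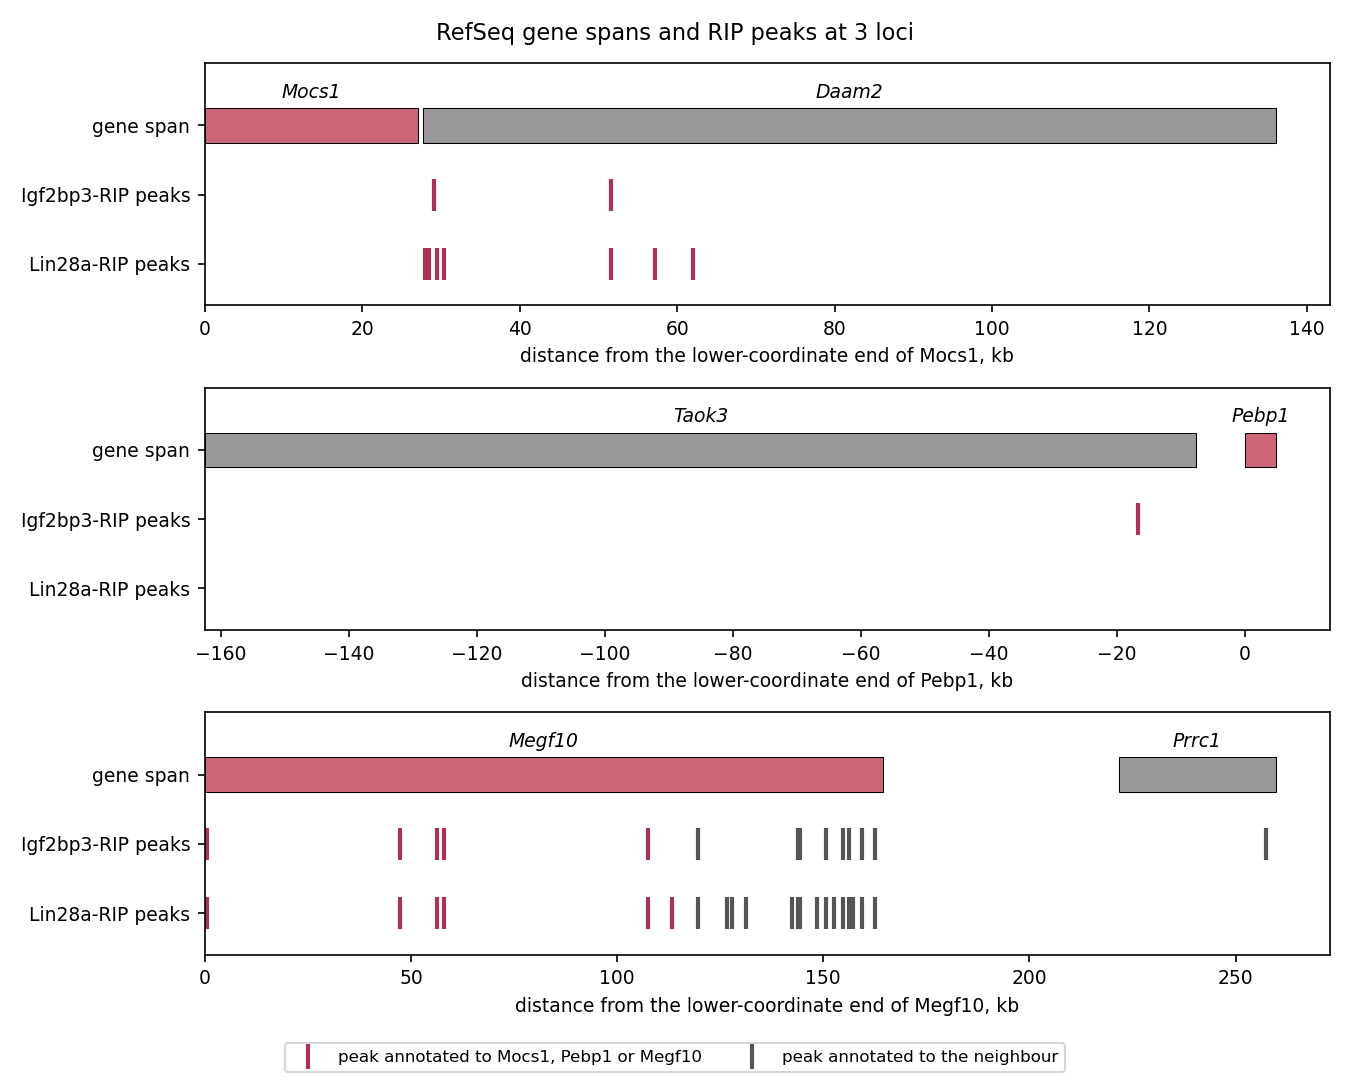
RefSeq spans (bars) of Mocs1 and Daam2, Pebp1 and Taok3, and Megf10 and Prrc1, with RIP peaks as ticks, against the distance in kb from the lower-coordinate end of Mocs1, Pebp1 or Megf10. The 9 peaks annotated to Mocs1 lie in Daam2, the peak annotated to Pebp1 lies in Taok3, and 23 of the 24 peaks annotated to Prrc1 lie in Megf10.

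**Figure D4:**
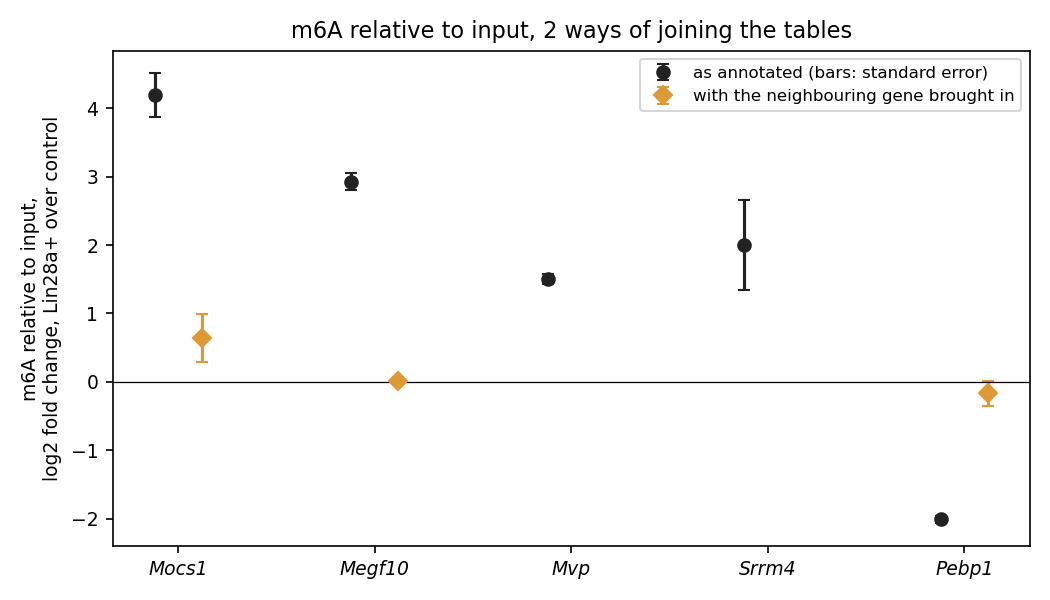
m6A relative to input, log2 fold change of Lin28a+ over control with its standard error, for the 5 genes as annotated (circles) and, for 3 of them, with the neighbouring gene brought in (diamonds): the input of Daam2 for Mocs1, the input of Taok3 for Pebp1, the Prrc1 transcript added for Megf10. The diamonds lie at 0.64, -0.17 and 0.017. No RIP peak was available to place the rows of Mvp and Srrm4.

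Mvp (ENSMUSG00000030681) encodes the major vault protein, the shell of the vault ribonucleoprotein particle. Its RNA was 75.3 and 75.8 CPM in control libraries and 47.8 and 51.7 CPM in Lin28a+ input libraries. Its m6A-RIP signal, 1 row on ENSMUST00000165096, was 31.7 and 32.5 CPM in control libraries and 59.1 and 58.9 CPM in Lin28a+ libraries. RNA was lower and m6A-RIP higher in every Lin28a+ library. The differences were -0.62 (standard error 0.05), 0.88 (0.07) and, relative to input, 1.50 (0.08) on the log2 scale, rank 111 of 7408.

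Neither Igf2bp3-RIP nor Lin28a-RIP had a peak on Mvp, so the place of its m6A row is not known from these files. On chromosome 7 Mvp runs from 126986860 to 127014594, and Pagr1a, an adaptor of a histone methyltransferase complex, lies 457 bp beyond it. The m6A row of Pagr1a moved by nearly as much as that of Mvp, from 60.8 and 59.5 CPM to 113 and 111 CPM per row, and as a gene it rose by 0.84 (standard error 0.05, adjusted p = 1.38e-08 in edgeR's quasi-likelihood test). The input of Pagr1a varied too much within groups for a comparison, with 0.954 and 4.70 CPM in control libraries and 1.49 and 15.1 CPM in Lin28a+ libraries (adjusted p = 0.295 in edgeR). The neighbour on the other side, Cdipt, a phosphatidylinositol synthase, differed by -0.01 in m6A-RIP (adjusted p = 0.939 in edgeR) and by -0.17 in RNA (adjusted p = 0.130). Its 2 m6A rows went opposite ways, by 0.16 (adjusted p = 0.0313) and -0.59 (adjusted p = 0.00306) in edgeR.

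Srrm4 (ENSMUSG00000063919), also called nSR100, is a splicing factor that brings microexons into messenger RNAs, chiefly in neurons. It had the largest RNA change of the 5 and moved the same way in both assays. Input held 2.00 and 4.20 estimated counts in control and 43.4 and 48.2 in Lin28a+ libraries, or 0.368 and 0.679 CPM against 8.54 and 9.89 CPM. The m6A-RIP row on ENSMUST00000139425 held 6 and 8 counts against 436 and 523, or 0.182 and 0.362 CPM against 19.0 and 17.4 CPM. Control levels were near the limit of both assays. Exact 95% intervals for counting error alone ran from 7.83 to 49.5 around a ratio of 17.7 in input and from 42.2 to 131 around a ratio of 71.2 in m6A-RIP.

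The log2 fold change of Srrm4 was 4.07 (standard error 0.24) in RNA, rank 51 of 11317, and 6.13 (0.26) in m6A-RIP, rank 9 of 9413. Both standard errors are smaller than the counting intervals of these ratios imply. Relative to input it was 2.00, rank 61 of 7408 by size, with a standard error of 0.66, the widest of the 5. As a ratio of levels, log2(CPM + 1) of m6A-RIP less that of input, it differed by 1.16, and by 1.70 with 0.1 CPM added in place of 1. The noncoding gene Srrm4os overlaps Srrm4 on chromosome 5, where Srrm4 spans 116439268 to 116592562. Its m6A row held 14 and 10 counts in control and 201 and 363 in Lin28a+ libraries and rose by 4.57 per gene (standard error 0.29, adjusted p = 3.23e-08 in edgeR's quasi-likelihood test), and it has no row in the input table. Whether reads were counted by strand is not given in the sources used here, so reads of these overlapping genes cannot be told apart. The other neighbours, Hspb8 and Suds3, differed by no more than 0.11 relative to input in either direction (adjusted p = 0.813 and 0.665 in edgeR).

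Igf2bp3-RIP was not used in the choice and was tested. Like m6A-RIP it also scales with the amount of RNA, and its peaks of Mocs1 and Pebp1 carry the same transcripts as their m6A rows. The table gives 2 peaks to Mocs1, which lie in Daam2, 5 to Megf10, which lie in it, and 1 to Pebp1, which lies in Taok3, and none to Mvp or Srrm4. Of the 8 peaks, 2 passed the threshold, both of them given to Mocs1, beside 0.123% of all 19465 peaks (24 peaks, and 108 to 193 without any 1 of the 4 libraries). Mocs1 peak 1 held 6 and 13 counts in control and 83 and 290 in Lin28a+ libraries, and peak 2 held 2 and 12 against 139 and 257. Every Lin28a+ library was above both control libraries. Their log2 fold changes were 3.79 (standard error 0.41, adjusted p = 0.0469) and 4.61 (0.48, adjusted p = 0.0424) in edgeR's quasi-likelihood test. Without 1 library in turn they ran from 3.52 to 3.97 and from 4.30 to 5.36, the last without control replicate 2, and both still passed. Neither could be fitted where 10 counts were asked of every library.

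Summed per gene, Igf2bp3-RIP of Mocs1 rose from 0.846 and 0.954 to 16.7 and 16.5 CPM, a log2 fold change of 4.17 (standard error 0.33, adjusted p = 0.00972 in edgeR), and 0.287% of 4524 genes passed this test. It was 1 of 3 of the genes tested. The control libraries hold 33 counts in all, and the ratio of 17.9 has an exact 95% interval of 12.6 to 26.2 for counting error alone. Against the input of Mocs1 the change was 3.85 (standard error 0.27), and against that of Daam2 it was 0.31 (0.26), given without a test.

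The 5 Megf10 peaks were lower in Lin28a+ libraries by 1.05 to 1.28 on the log2 scale, without passing the threshold (adjusted p = 0.366 to 0.982 in edgeR). All 5 passed when the replicate number was added to the model as a block. At the third of them, chr18:57189339-57189540, levels were 44.3 and 63.2 CPM in control libraries and 21.2 and 23.2 CPM in Lin28a+ libraries. At peak 5 the lower control library lay close to the higher Lin28a+ library, with 13.0 and 30.2 CPM against 5.88 and 12.7 CPM. Within each replicate number the Lin28a+ library was the lower. The difference of -1.21 at this peak came to -0.44 without control replicate 2 and -1.89 without Lin28a+ replicate 2. Summed per gene, Megf10 was 173 and 244 CPM in control libraries and 79.0 and 103 CPM in Lin28a+ libraries, a difference of -1.20 (standard error 0.27, adjusted p = 0.223 in edgeR). This gene passed the threshold with DESeq2 (-1.19, adjusted p = 0.0100) and in edgeR with the replicate block. Without control replicate 1 its difference was -1.43. The 8 peaks given to Prrc1 inside Megf10 differed by -1.08 to -1.38 (adjusted p = 0.405 to 1.000 in edgeR), whereas the peak inside Prrc1 itself differed by -0.04 (adjusted p = 1.000 in edgeR). Against its input, Igf2bp3-RIP of Megf10 went the other way, by 0.78 (standard error 0.29), and by 0.82 (0.43) with the peaks of the Prrc1 transcript added, both given without a test.

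The Pebp1 peak was 10.0 and 5.33 CPM in control libraries and 4.29 and 2.78 CPM in Lin28a+ libraries, a log2 fold change of -1.11 (standard error 0.43) that did not pass the threshold (adjusted p = 0.899 in edgeR). With the replicate block this peak passed. Against the input of Pebp1 the change was -1.72 (standard error 0.38) and against that of Taok3 0.12 (0.45), given without a test.

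**Figure D5:**
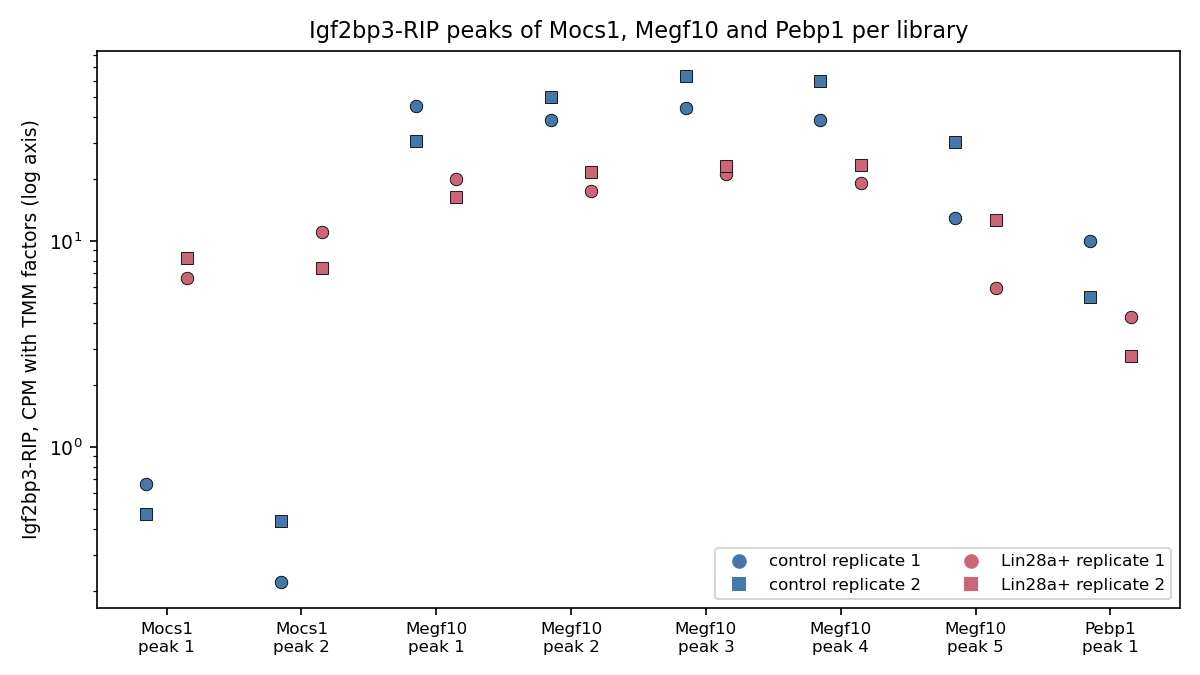
Igf2bp3-RIP level in CPM (log axis) of the 8 peaks given to Mocs1, Megf10 and Pebp1, per library, with circles for replicate 1 and squares for replicate 2. At both Mocs1 peaks the Lin28a+ libraries lie far above the control libraries; at the other 6 peaks they lie below.

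Lin28a-RIP was made from Lin28a+ MuSCs alone, so no comparison between the groups was possible. Mocs1 had 7 peaks, summing to 2233 and 2076 counts (61.0 and 61.2 CPM). Megf10 had 6, summing to 3856 and 3599 counts (105 and 106 CPM), and the 15 peaks given to Prrc1 that lie inside Megf10 summed to 19506 and 16950 counts (533 and 499.8 CPM). Mvp, Srrm4 and Pebp1 had none. Both Mocs1 Igf2bp3-RIP peaks and all 5 of Megf10 overlapped a Lin28a-RIP peak by at least 1 bp, and 7 of the 13 Lin28a-RIP peaks that carry the names of the 2 genes overlapped one of Igf2bp3. The strongest Lin28a-RIP peak of Mocs1, chr17:49457456-49458218, held 643 and 578 counts.

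The profiles most like each gene were sought over the 8 input and m6A-RIP libraries by the Euclidean distance of log2(CPM + 1). Nearest to Mocs1 were Rnd1 and Stard10, at distances of 2.45 and 2.47 against a median of 7.52 over 7407 genes, and their RNA differed by 1.32 and 1.26, unlike that of Mocs1. Relative to input they differed by 0.62 and 0.36. Nearest to Megf10 were Ghitm at 2.05 and Abhd2 at 2.11, whose RNA differed by -0.31 and -0.50 and whose m6A relative to input differed by 0.37 and -0.12, far less than that of Megf10. Nearest to Srrm4 were Cdkn1c at 1.29 and Sox8 at 1.79, with RNA at 4.57 and 2.55 and m6A relative to input at 0.32 and 0.54. Mvp had the closest, Nudt14 at 0.80 and Orai2 at 0.89, with RNA at -0.04 and -0.64 and m6A relative to input at 0.72 and 0.77. Cox7a2 and Ppib, at 1.34 and 1.40 from Pebp1, had RNA at 0.50 and 0.68 and m6A relative to input at -1.34 and -1.55. These fold changes come from the libraries by which the profiles were matched, so they describe the match.

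Other genes of the same pathways were read from fixed lists. In the molybdenum cofactor list, which holds 11 genes beside Mocs1, 9 were tested for RNA: Marc2 rose (0.92) and Xdh (-2.98), Aox1 (-1.34) and Suox (-0.34) fell, beside 28.1% and 28.7% of all genes. Relative to input, 4 were tested and Gphn, the gephyrin that completes the cofactor, rose by 0.51 (standard error 0.12, adjusted p = 0.0289 in edgeR), beside 3.35% of all genes higher and 3.91% lower. The median of the 4 was 0.19, against -0.01 over all genes.

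The Raf-MEK-ERK list held 34 genes beside Pebp1, and in RNA 24 fell and 5 rose, with a median of -0.50 against 0.01 over all genes, of which 28.7% fell and 28.1% rose. Those that fell include Dusp4 (-1.84), a phosphatase of ERK, and Etv5 (-3.31), a transcription factor of the pathway, and Ksr1 (0.50), a scaffold of the cascade, rose. In m6A-RIP 17 of 31 fell and 4 rose, beside 33.7% and 32.5% of all genes. Relative to input 2 of 31 passed, a share near that of all genes (3.35% higher and 3.91% lower), both upwards: Etv4 by 1.31 (standard error 0.30, adjusted p = 0.0217) and Spred1, an inhibitor of Ras signalling, by 1.00 (0.26, adjusted p = 0.0439) in edgeR. The median of the 31 was 0.01.

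In the list of apoptotic cell uptake, 13 of 27 genes beside Megf10 were tested for RNA, of which 7 fell and 1 rose, beside 28.7% and 28.1% of all genes. Lrp1, an uptake receptor, fell by 1.05 and the kinase receptor Tyro3 rose by 0.94. None of the 8 genes of this list tested relative to input passed in edgeR, with unadjusted p-values from 0.0539 upwards. In the vault, Parp4 RNA differed by -0.32 (adjusted p = 0.00166) and Tep1 RNA by 0.42 (adjusted p = 0.0456), and relative to input they differed by -0.07 (adjusted p = 0.897) and -0.38 (adjusted p = 0.407) in edgeR. Of 24 splicing genes beside Srrm4, 16 were tested for RNA, of which 8 fell and 3 rose, beside 28.7% and 28.1% of all genes. Rest, the repressor of neuronal genes, fell by 0.92. None of the 16 tested relative to input passed in edgeR, and the smallest unadjusted p was 0.00421, for Rnps1.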

How the data were processed

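Per the labels and the paper, reads were trimmed, aligned with HISAT2 2.0.4 and, for peaks, called with MACS2 1.4.3; annotations were made with Homer. The program that counted reads and the settings by which a peak was given to a gene are not given in the sources used here. The RIP tables that the authors deposited hold raw counts, whole numbers for each peak or row. The input table they deposited holds estimated counts of genes, with decimals, and was rounded before the tests. The deposited values are not scaled to depth.

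Columns were assigned by their names. The Lin28a+ input columns carry m6A-RIP names and the Lin28a+ m6A-RIP columns share 1 name, so these 4 have a group but no replicate number. The spread of input replicates over all genes was under sampling noise (chi-square per degree of freedom 0.730 and 0.662), but among genes with whole numbers it was 1.65 and 1.74, and each pair was counted as 2 samples.

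Tests used edgeR 4.0.16 (quasi-likelihood, TMM, filterByExpr) in R 4.3.3, with a cells by assay interaction for m6A relative to input. p-values were adjusted over all features of a fit, and fold changes carry a prior count of 0.125. Standard errors were derived from the fold change and the F statistic of the same test. For Megf10 and Pebp1 the standard error relative to input is below that of m6A-RIP alone, so these values can understate the error. Alternatives were DESeq2 1.42.0, total counts in place of TMM, no filter or at least 10 counts in every library, each row alone, a pseudocount of 0.1 CPM in place of 1, a peak overlap of 50%, a replicate block and each library left out. RefSeq symbols matched 99.96% of m6A-RIP rows, 99.97% of Igf2bp3-RIP peaks and 99.98% of Lin28a-RIP peaks. Marc2 of the input table is Mtarc2 in RefSeq and was not joined.

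The 5 genes, the gene lists and the settings were chosen with earlier results of these data known. Named genes are the 5, genes beside or over them, the 2 nearest profiles of each, up to 3 genes of a list that passed relative to input, and all genes of the vault list. Those of a list named for RNA, and Rnps1, were chosen after their values were seen.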

Additional observations from a re-analysis of the deposited data

How the results depend on the processing

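m6A relative to input of the 5 genes kept its direction in every alternative that used their own rows and input. Its values without each library in turn ran from 3.87 to 4.47 for Mocs1, 2.81 to 3.05 for Megf10, 1.44 to 1.55 for Mvp, 1.50 to 2.46 for Srrm4 and -2.06 to -1.96 for Pebp1. With 0.1 in place of 1 CPM added, the ratio of levels went from 3.47 to 4.07 for Mocs1 and from 1.16 to 1.70 for Srrm4. Pebp1 row by row gave -1.81, -2.21 and -2.12. The settings that bring in a neighbouring gene, chosen after seeing the data, gave 0.64 (Mocs1), -0.17 (Pebp1) and 0.017 (Megf10). Igf2bp3-RIP relative to the input of Taok3 turned Pebp1 from -1.72 to 0.12. Mocs1 RNA ranged from -0.11, without Lin28a+ library b, to 0.24 with an input library left out.

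With DESeq2, 3039 genes passed in RNA, 325 in m6A relative to input, 263 Igf2bp3-RIP peaks and 115 genes of Igf2bp3-RIP. In edgeR, m6A relative to input gave 297 to 604 genes with a library left out, and 297 to 341 where that was any of the 4 input libraries. Total counts gave 7 genes of Igf2bp3-RIP. Without any 1 of the 4 Igf2bp3-RIP libraries, 108 to 193 peaks and 39 to 76 genes of Igf2bp3-RIP passed. With at least 10 counts in every library, 0 Igf2bp3-RIP peaks passed in edgeR, with 973 at an unadjusted p under 0.05; neither Mocs1 in Igf2bp3-RIP nor Srrm4 could be fitted at this setting. Mocs1 in Igf2bp3-RIP, by peak and by gene, passed in the other alternatives. The cause of these moves was not tested.

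Megf10 in Igf2bp3-RIP ranged from -1.43 to -0.93 with a library left out, passed only without control replicate 1 among these, and gave -1.19 with DESeq2. Replicate numbers are shared between the Igf2bp3-RIP groups, but no label ties a number to an animal or batch. Deviations of same-number libraries correlated at 0.70 over 19465 peaks (2 pairs). Replicate 1 was the shallower library in both groups. With a replicate block 1988 peaks and 370 genes passed, Megf10 among the genes (-1.19, adjusted p = 9.74e-04 in edgeR) and all 8 peaks of the 3 genes among the peaks. For input and m6A-RIP no paired analysis was possible because the Lin28a+ columns carry no usable numbers.

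With 2 libraries per group, precision rests on a spread shared among genes. Control counts of Srrm4 and of the Mocs1 peaks are few, and depth limits their folds.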

Other observations

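The placement seen at Mocs1 and Pebp1, with no RIP peak inside the gene itself, was counted over all genes tested for m6A relative to input that have at least 1 RIP peak. Of 298 such genes past the threshold, 110 (36.9%, exact 95% interval 31.4 to 42.7) had no Igf2bp3-RIP or Lin28a-RIP peak inside their own RefSeq span. Among the 93 of them that changed over 2-fold the share was 39.8% (29.8 to 50.5). Of 3264 genes not past the threshold, 364 had none (11.2%, 10.1 to 12.3). These shares were computed after these loci had been seen, and the intervals treat genes as independent. The sets of genes were not matched for number of peaks or RNA level. The m6A rows themselves have no positions, so the part of peak assignment in the calls was not tested.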
